A study of Mus musculus with 144 samples.

Results

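In this series of mouse liver 3′ end libraries the authors deposited a list of 86780 candidate polyadenylation sites and a shorter, filtered list of 29199 of them. The sites described here are the 57581 (66.4%) that are named in the first list and absent from the second. The rule that took them used names alone and no counts. How the authors filtered the list is not given in the sources used here, so whether their filter used width, counts or place is unknown.

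A messenger RNA receives its 3′ end when a protein complex recognises a signal in the new transcript, usually AATAAA or a close variant, cuts a short distance after it and adds a tail of A residues. Many genes can be cut at several places. Cuts inside introns give short transcripts, and cuts at different places in the last exon give different 3′ untranslated regions. A 3′ library is primed with oligo-dT on that tail, so the reads pile up at the cut. Oligo-dT can also pair with a run of A inside a transcript or an unspliced precursor, and such internal priming gives a pile of reads where no end was made. Filters on site lists are commonly built to remove these.

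The livers came from male C57BL/6J mice kept in 12 h of light and 12 h of darkness with food and water always available. The 4 sets of libraries were total RNA of wild-type liver, nuclear RNA of wild-type liver (nuclei were washed in hypotonic buffer and spun through a sucrose cushion), polysomal RNA of wild-type liver (polysomes were held with cycloheximide and taken from a sucrose gradient) and total RNA of Bmal1-/- liver. Bmal1-/- mice lack the core clock activator Bmal1, whose gene symbol in the files is Arntl. Each set held 6 libraries at each of ZT2, ZT6, ZT10, ZT14, ZT18 and ZT22, where ZT is the time in hours after lights on, so that n = 36 per set and 144 in all. Every library was made from 2 µg of RNA with the QuantSeq 3′ kit. The labels do not say that the libraries of a group came from separate animals, so the p-values measure the spread between these libraries. Bulk RNA cannot tell fewer cells of a type apart from less RNA per cell.

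The sequence at a site can hold a run of A or a signal, though alone it does not settle whether an end was made there. As examples, 6 sites outside the filtered list are printed. They were picked by level in wild-type total RNA and not by sequence, so they do not stand for the other sites. Each line gives the last 10 bases of the site and the 20 bases after it on the site's own strand, 5′ to 3′, taken from the RefSeq promoter table of GRCm38.p6. Capitals mark a run of at least 8 A, or the signal AATAAA.
Srebf1, chr11:60222602-60222749, minus strand: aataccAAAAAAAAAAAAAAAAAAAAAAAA
Acmsd promoter window, chr1:127729234-127729380, minus strand: tttaaaagAAAAAAAAAAAAAActtcaacc
Mup11, chr4:60662421-60662439, minus strand: caacaacAAAAAAAAcccgctgaacccaga
Igflr1, chr7:30565210-30565340, plus strand: tcctccAATAAAggttaagaagtttgtcaa
Nlrp6 promoter window, chr7:140920727-140920842, plus strand: agAATAAAatagaagaaaaccaaaggtcgc
Rps28 promoter window, chr17:33824647-33824684, plus strand: tctggggtgcgtgtgctgttccgatccggg
The site in Srebf1, a regulator of lipid synthesis, was followed by 20 A in 20 bases, and the site in the promoter window of Acmsd, on the other strand than that gene, by 14. The site at the end of Igflr1 and the site in the Nlrp6 window held AATAAA in the stretch shown. The Rps28 window site, on the other strand than that gene, had neither and 1 A in the 20 bases after it.

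These sites also differed in how they behaved. At the Srebf1 site the level was 14.5, 35.4 and 68.6 counts per 1000000 site counts (CPM; lowest, median and highest of 36 libraries) in total RNA and 53.6, 128 and 241 CPM in nuclear RNA. The 2 ranges overlapped only slightly, and the fitted log2 change was 1.43 ± 0.13 (SE, edgeR adjusted p = 8.09e-17). The Acmsd window site rose in nuclear RNA as well, by a log2 change of 1.61 ± 0.13, from 3.43, 8.25 and 11.9 CPM to 7.98, 29.8 and 85.7 CPM. The Igflr1 site, at a gene's annotated end, fell in nuclear RNA by 0.77 ± 0.10 on the log2 scale. The Nlrp6 window site, which no gene held, rose by 1.35 ± 0.13. The site in Mup11, one of the near-identical genes of the major urinary proteins, fell by 2.64 ± 0.28 on the log2 scale.

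Sequence could be read for few sites, because only the windows around gene starts are in the table used here. Of the 224 sites outside the list that lay in such a window with 20 bases after them, 25 (11.2%) were followed by at least 12 A. That was true of 4 of 70 sites of the filtered list (5.71%) and of 0.892% of 985530 positions of that length over both strands of all windows. AATAAA or ATTAAA, sought in 70 bases from 50 before to 20 after the site end, stood at 69 of 201 sites outside the list (34.3%), at 29 of 69 sites of the list (42.0%) and in 4.36% of 262808 windows of that length. At sites only the site's own strand was searched, while the windows used for comparison were searched on both strands. A site with either motif, or with both, gave a single count. Sites near gene starts do not stand for all sites.

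Library depth ranged from 1404964 to 12217394 site counts. No 2 of 360 pairs of libraries of a group held identical counts, and every pair differed by more than sampling noise (the lowest chi-square per degree of freedom was 1.99). The 7 hepatocyte markers summed to between 19364 and 127921 CPM of gene counts in a library, as a liver label asks. The 4 erythroid markers had median sums of 1379 CPM in total and 4496 CPM in polysomal RNA, and none of their genes held a site outside the filtered list. In 4 libraries, 1 per set and all at ZT22, Xist exceeded 100 CPM although the labels say male; the highest of the other libraries was 5.67 CPM. The tests of shares per library and the edgeR tests below were also computed without these 4, and a value is given where the call changed. Levels, shares by place, relations within nuclear RNA and counts of detected sites were computed with all libraries only. The Bmal1 gene Arntl had 0.251, 6.46 and 19.3 CPM in wild-type total RNA and 5.17, 10.9 and 18.6 CPM in Bmal1-/- total RNA; a 3′ tag does not check a deletion elsewhere in the gene.

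The sites outside the list were narrow, scattered and mostly far from a listed site. Their median width was 12 bp against 44 bp in the list, and 20675 of them (35.9%) were exactly 10 bp wide against 1130 listed sites (3.87%). The nearest listed site on the same strand lay a median of 6174 bp away, against 88 bp between listed sites, and 44.2% were more than 10000 bp from any. By the RefSeq gene table, 35773 (62.1%) lay inside a gene on its own strand, 11037 (19.2%) inside a gene whose strand the tables used here do not hold, 5499 (9.55%) in no gene, 2410 (4.19%) within 25 bp of an annotated gene end, 1580 (2.74%) antisense to a gene and 1282 (2.23%) up to 1000 bp past a gene end. The largest contrasts with the list were at gene ends, where 17.0% of listed sites lay, and in antisense positions, where 0.425% did. Of the 10241 genes that held a site, 8818 held at least 1 outside the list.

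They were also weak, and whether the authors' filter itself used width or level is not known. The median site had 0.569 CPM averaged over all libraries against 3.37 CPM in the list, although 5373 sites outside the list reached that value. The 692 sites that averaged 100 counts or more per library carried 44.1% of all counts outside the list, and the 37875 that averaged 1 to under 10 carried 22.9%. With a filter at an average of 10 counts per library, 17195 sites entered at least 1 of the tests below and 40386 entered none.

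The strongest sites were not all in genes. The highest mean level in wild-type total RNA was at chr7:98093145-98093248 on the plus strand, antisense to Myo7a, an unconventional myosin, with 1081, 2673 and 4066 CPM. The site at chr10:82955257-82955327 on the minus strand, in no gene, came next with 91.4, 601 and 1361 CPM in total RNA, and it had 1913, 5113 and 49178 CPM in nuclear RNA and 1126, 9493 and 46902 CPM in polysomal RNA. All nuclear libraries exceeded all total RNA libraries at this site, and the polysomal range overlapped the total RNA range slightly. In genes, the strongest were sites in Fabp1, the liver fatty acid binding protein (22, 450 and 1369 CPM), in Gc, the vitamin D binding protein of plasma (126, 464 and 765 CPM), and in Mup7 (2.45, 390 and 959 CPM), whose near-identical relatives make its counts uncertain. At chr17:6895072-6895093 on the minus strand, in no gene, the wild-type total RNA libraries ranged from 227 to 1360 CPM, while the Bmal1-/- libraries ranged from 3.94 to 515 CPM and 14 of the 36 stayed at or below 10 CPM.

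Counts outside the list took a larger share of nuclear libraries than of any other set. The share of site counts outside the list was 8.79, 9.79 and 11.1% (lowest, median, highest) in total RNA, with a mean of 9.91% ± 0.651 (SD, n = 36). In nuclear RNA it was 9.31, 20.05 and 33.2%, with a mean of 20.6% ± 5.59. Of the 36 nuclear libraries 35 lay above every total RNA library. The difference of 10.7 points held at 6 of 6 times (2-sided permutation test within times, p = 1e-05, the smallest that 100000 resamples can give; adjusted over the 3 comparisons, 3e-05).

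In polysomal RNA the share was 7.43, 9.27 and 14.4%, with a mean of 9.76% ± 1.69, and the difference of -0.146 points did not pass (permutation p = 0.635, higher at 3 of 6 times). The 10 sites outside the list with the highest mean level over all libraries carried a mean of 18.8% of polysomal counts outside the list. In total RNA they carried 6.88%. Without those 10 sites the difference was -1.33 points (permutation adjusted p = 1.5e-05), and with the gene table total as denominator it was 0.461 points (adjusted p = 0.00191), so its direction depended on the denominator. It was 0.214 and 0.190 points without the libraries numbered 1 and 4. In Bmal1-/- total RNA the share was 8.70, 10.7 and 12.8%, with a mean of 10.8% ± 1.04. It was 0.903 points above wild type, at 6 of 6 times (permutation p = 2e-05, adjusted p = 3e-05), and 15 of 36 libraries lay above every wild-type one. All 3 comparisons share the wild-type total RNA libraries.

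**Figure D1:**
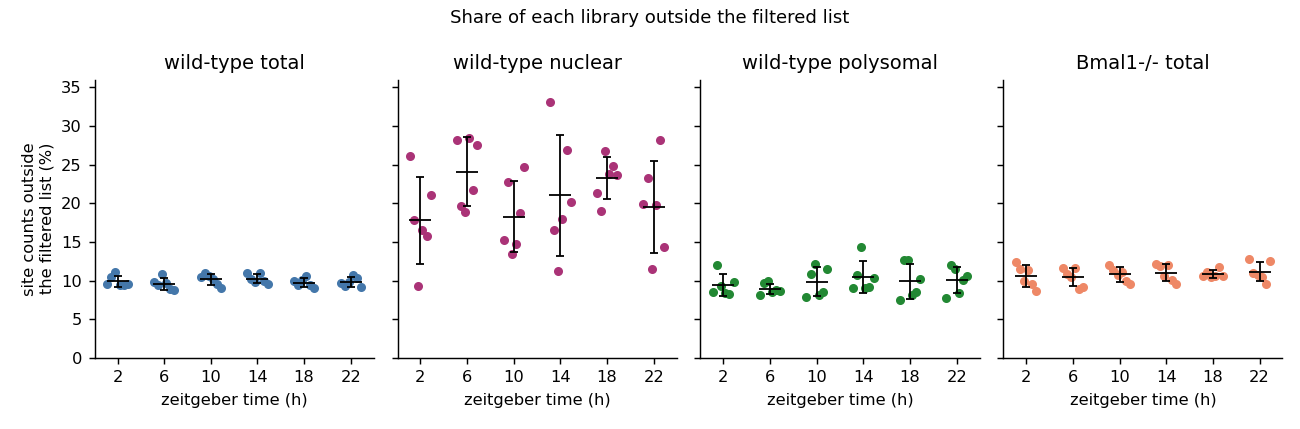
Percent of site counts outside the filtered list (y axis) in each library by zeitgeber time (x axis, h), 1 panel per set of libraries. Points are libraries, bars are the mean ± SD of 6 libraries at a time. The nuclear libraries spread from 9.31 to 33.2%, and 35 of 36 lie above the highest total RNA library at 11.1%.

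The place of the sites differed between sets. Sites inside genes took 4.67% of site counts in total RNA, 12.3% in nuclear, 3.36% in polysomal and 5.08% in Bmal1-/- RNA, while sites in no gene took 1.84, 2.98, 3.34 and 2.03% in that order. No daily rhythm of the share passed in any set (permutation test of a 24 h cosine, adjusted p = 0.726 in total, 0.859 in nuclear, 0.726 in polysomal and 0.726 in Bmal1-/- RNA).

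Across the 36 nuclear libraries the share moved with the nuclear RNAs Malat1 and Neat1. Of 4 relations computed, that with Malat1 had Pearson r = 0.818 and Spearman rho = 0.832 (each permutation p = 1e-05, the smallest possible, adjusted 2e-05), and r was 0.818 without the 2 libraries farthest from the median of Malat1. For Neat1 the values were r = 0.731 and rho = 0.755 (each permutation p = 1e-05, adjusted 2e-05), and r = 0.693 without the farthest 2. The share fell with depth, at r = -0.456 and rho = -0.474 (permutation p = 0.00522 and 0.00385, adjusted 0.00696 and 0.00513; r = -0.503 without the farthest 2). Its relation to Alb did not pass (r = -0.273, permutation p = 0.108; rho = -0.297, p = 0.0787; r = -0.263 without the farthest 2). The part of these levels in the share was not tested. No batch is given in the labels or headers.

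Polysomal libraries held fewer of the sites. Thinned to 1404964 counts each, libraries detected a mean of 27804 ± 1909 (SD) sites outside the list in total RNA, 28598 ± 2266 in nuclear, 28134 ± 1458 in Bmal1-/- and 15678 ± 1856 in polysomal RNA. The polysomal libraries ranged from 12005 to 19495, below the lowest library of the other sets at 21201. For listed sites the means were 25206, 22109, 25205 and 21959 in the same order. Without thinning, the means outside the list were 44280, 35528, 43771 and 21640.

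Among the sites that passed the filter on counts, those outside the list were mostly higher in nuclear than in total RNA, and listed sites were mostly lower. Of the 10780 tested, 7308 (67.8%) were higher and 2414 (22.4%) lower at an edgeR adjusted p under 0.05, with a median log2 change of 1.63. Over all 28429 sites tested, 87.1% changed, 38.6% higher and 48.5% lower, with a median of -0.25, and the listed sites had a median of -0.78. A site can pass the filter through its nuclear counts alone, so these counts describe the tested sites and not all of them. With no filter, 19834 of 57520 sites outside the list were higher and 19247 lower, and the median turned to -0.04 (over all sites, -0.35).

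Among the tested sites the nuclear excess lay inside genes and far from listed sites. Among 7033 tested sites in gene bodies 5230 were higher and 1187 lower, with a median of 1.94. At annotated gene ends 18 of 91 were higher and 51 lower, with a median of -0.49, close to the -0.53 of listed sites there. The medians in no gene (-0.04), antisense (0.04) and past a gene end (-0.10) were near 0. Sites over 10000 bp from a listed site had a median of 1.98, and those within 100 bp had -0.38.

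**Figure D2:**
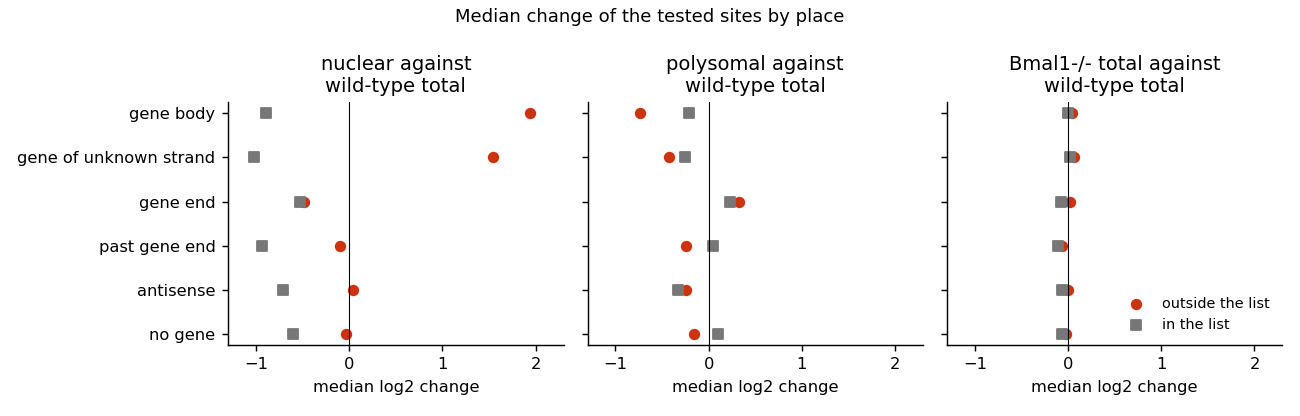
Median fitted log2 change against wild-type total RNA (x axis) of the tested sites by place (y axis), for nuclear, polysomal and Bmal1-/- RNA. Circles are sites outside the filtered list and squares are listed sites; in nuclear RNA gene-body sites stand at 1.94 outside the list and at -0.89 in it, while at gene ends both are below 0.

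The 8 largest nuclear rises were in gene bodies or genes of unknown strand, at narrow sites of 10 to 22 bp. At chr4:141702036-141702049 in Ddi2, a protease linked to proteasome function, total RNA had 0, 0.766 and 1.89 CPM and nuclear RNA 13.8, 56.3 and 361 CPM. The sets did not overlap, and the log2 change was 5.99 ± 0.22 (edgeR adjusted p = 5.09e-37). At chr19:38119776-38119793 in Rbp4, the retinol carrier of plasma, 0.378, 1.38 and 4.09 CPM in total RNA stood against 18.7, 102 and 464 CPM in nuclear RNA, again without overlap (log2 5.64 ± 0.18, edgeR adjusted p = 3.7e-40). Sites in Abcc2, the export pump of the bile canaliculus (5.90), Serpinf2, the plasmin inhibitor (5.20), Carmil1 (5.18) and the nuclear RNA Neat1 (5.18) rose without overlap of the sets. Those in Phlda1 (5.64) and Pbld1 (5.29) rose with overlap. With total RNA medians of 0.766 and 1.38 CPM, the Ddi2 and Rbp4 sites could pass the filter through their nuclear counts alone. Such changes describe sites picked by high counts in that set.

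The largest nuclear falls were at wider sites, several of them in pseudogenes. At chr11:33156700-33156750, in a window of Npm1, which encodes a nucleolar protein, total RNA had 10.1, 22.6 and 37.2 CPM and nuclear RNA 0, 0.842 and 3.80 CPM. No nuclear library reached the total RNA range, and the log2 change was -4.96 ± 0.18 (edgeR adjusted p = 1.9e-36). The site in the pseudogene Mpc1-ps fell by 4.85 and that at chr12:59225849-59225882, in no gene, by 4.52, both without overlap. Sites in Dnajc3 (-5.53), an endoplasmic reticulum chaperone, Mug1 (-5.02), a protease inhibitor of plasma, and the pseudogene Cbx3-ps6 (-4.93) fell with overlap. How reads shared by a pseudogene and its parent gene were counted is not given in the sources used here, so the counts at such sites are uncertain.

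By gene list, 34 of the 56 tested sites in the genes used to check the fractions (Malat1, Neat1, Alb, Apoa1, Apob and Actb) were higher in nuclear RNA and 11 lower. All 4 tested sites in Neat1 and 4 of 5 in Malat1 rose. In the gene table, as counts of the whole gene, Malat1 had a lower median in nuclear RNA: it had 407, 1482 and 2964 CPM there and 369, 1750 and 2845 CPM in total RNA, with overlap. Neat1 had 282, 1411 and 5126 CPM in nuclear and 83.9, 157 and 304 CPM in total RNA. These gene levels were not tested. In Apob, which encodes the large protein of lipoproteins, 18 of 32 rose and 7 fell. At its site chr12:7998061-7998075 total RNA had 0, 0.885 and 1.84 CPM and nuclear RNA 5.15, 27.6 and 70.6 CPM, without overlap, and the log2 change was 4.65 ± 0.20 (edgeR adjusted p = 1.52e-32). So low in total RNA, that site too could pass the filter through its nuclear counts alone. Plasma protein genes had 110 of 182 sites higher and 47 lower, cytochrome P450 genes 84 of 153 higher and 43 lower, and genes of the cleavage and polyadenylation machinery 14 of 19 higher and 4 lower. The shares higher in the plasma protein and cytochrome P450 genes lay below the 67.8% of all tested sites outside the list and above the 38.6% of all sites tested. Papola, the poly(A) polymerase, held 13 sites outside the list, and the 4 that passed the filter rose. Ribosomal protein genes went the other way, with 9 of 35 higher and 23 lower and a median of -1.47.

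Within genes, the share of a gene's site counts that fell outside the list rose in nuclear RNA for most genes that could be tested. Of 3083 genes, 2289 had a higher share and 385 a lower one (edgeR with the gene's site total as offset; 86.7% changed, 74.2% higher and 12.5% lower). The filter of 5 to 95% outside the list was set on both sets together. A gene could thus enter through its nuclear share alone, and these counts and medians describe the tested genes only. The median share was 12.6% in total and 27.5% in nuclear RNA. In Arpc3, a subunit of the actin-nucleating Arp complex, it was 0, 1.48 and 4.98% in total RNA and 15.5, 63.9 and 89.3% in nuclear RNA. The sets did not overlap (log2 change of the share 5.13 ± 0.15, edgeR adjusted p = 8.56e-42). Rcc2 (4.32), Shmt1 (4.27), the cytosolic serine hydroxymethyltransferase, Sec14l2 (4.25) and Eif4h (4.23), a translation initiation factor, followed. Arpc3 and these genes had total RNA medians between 1.48 and 2.17%, below the 5% of the filter. The largest falls were in Nxt2 (-3.65), an mRNA export factor, Cacybp (-3.59), Ric1 (-3.25), Etfrf1 (-3.04) and Akr1e1 (-2.98). The fall in Akr1e1 reversed to a rise of 0.64 (edgeR adjusted p = 0.00503) when sites up to 5000 bp past a gene end were counted in the gene.

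In polysomal RNA more of the tested sites were lower than higher, in every place but gene ends. Of 6002 tested, 1623 (27.0%) were higher and 3053 (50.9%) lower, with a median of -0.52. Over all 24673 sites 75.5% changed, 32.4% higher and 43.1% lower, with a median of -0.16, and for listed sites the median was -0.09. A site can pass the filter through the counts of either set alone, so these counts describe the tested sites. Gene-body sites had 813 of 3407 higher and 1864 lower, with a median of -0.73, and gene-end sites had 60 of 131 higher and 41 lower, with a median of 0.33. The medians of the other places lay between -0.42 and -0.15.

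The largest polysomal falls were all in gene bodies and none of the 8 overlapped total RNA. At chr3:118891476-118891567 in Dpyd, which begins pyrimidine breakdown, total RNA had 3.80, 14.4 and 49.5 CPM and polysomal RNA 0, 0 and 1.56 CPM. The site was at 0 in 30 of 36 polysomal libraries (log2 -7.65 ± 0.33, edgeR adjusted p = 3.21e-29). Sites in Gsta3, a glutathione transferase (-6.81), Plcxd2 (-6.21), Adk, adenosine kinase (-5.71), Abcc2 (-5.69), Acsl1, a long-chain acyl-CoA synthetase (-5.62), Cat, catalase (-5.62), and Hnf4aos, transcribed antisense to Hnf4a (-5.45), followed. The Abcc2 site that fell here, chr19:43787148-43787249, lies just before the Abcc2 site that rose in nuclear RNA, chr19:43787758-43787767.

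At 5 of the largest polysomal rises the libraries numbered 1 stayed at or below 1.34 CPM, under every other polysomal library. At chr19:4195415-4195424 on the plus strand, in Rad9a, a DNA damage checkpoint gene whose strand the tables used here do not hold, total RNA had 7 counts in 36 libraries. This site passed the filter through its polysomal counts alone, so its change describes a site picked by high counts in that set. The polysomal libraries numbered 2 to 6 had 34.7, 54.7 and 141 CPM (n = 30), and those numbered 1 had 0, 0.427 and 0.757 CPM (n = 6). The fitted log2 change was 9.84 ± 0.53 (edgeR adjusted p = 9.44e-25), or 10.05 without the libraries numbered 1. The adjacent site chr19:4195341-4195389 (7.72), which lies in Ppp1ca as well as Rad9a, showed the same split in all 6 times. So did sites at the end (7.90) and in the body (7.09) of Tmem150a, a membrane protein gene, and a site in Hhex, a homeobox factor of liver development (6.67). At fitted changes of this size, these sites could also pass the filter through polysomal counts alone. Which of these genes the reads on chromosome 19 came from was not settled. What sets the libraries numbered 1 apart was not tested. Sites in the pseudogene Vmn2r-ps23 (5.91) and in Wdr92 (5.34) rose with wide spread: the Wdr92 site had 0, 7.98 and 332 CPM in polysomal RNA. The chromosome 10 site described above rose by 4.27 ± 0.28 (edgeR adjusted p = 2.9e-21). At these 3 sites the libraries numbered 1 were also low, though they overlapped the others, with polysomal medians of 2.82 against 83.4 CPM in Vmn2r-ps23, 1.24 against 18.1 CPM in Wdr92 and 1549 against 11653 CPM on chromosome 10.

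**Figure D3:**
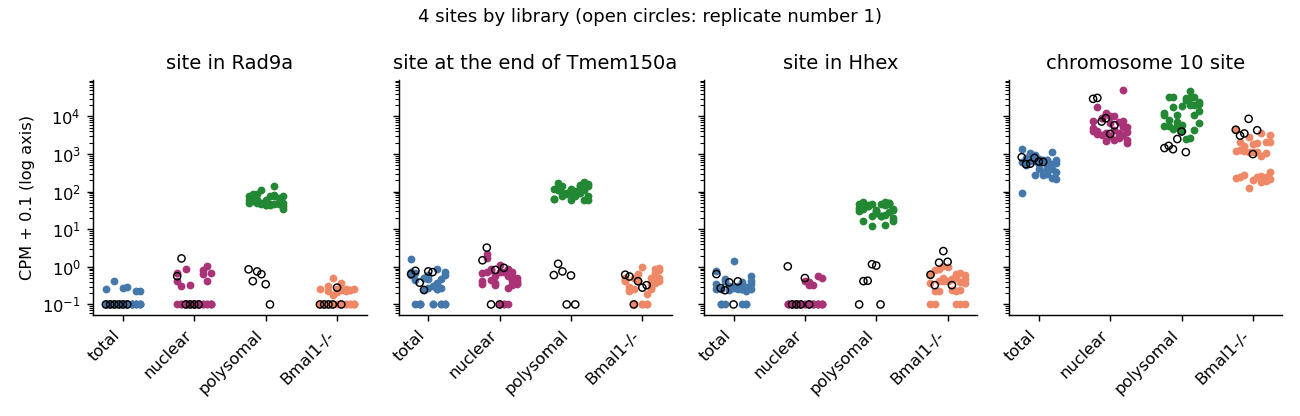
CPM + 0.1 on a log axis (y) of 4 sites outside the filtered list in every library by set (x axis). Filled points are libraries numbered 2 to 6 and open circles those numbered 1. The Rad9a panel shows a site whose neighbour lies in Ppp1ca as well. At the Rad9a, Tmem150a and Hhex sites the polysomal open circles lie near 0 while the other polysomal libraries have at least 34.7, 58.1 and 11.8 CPM; at the chromosome 10 site the open circles are low (median 1549 against 11653 CPM) but overlap the others.

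By list, plasma protein genes had 16 of 136 sites higher and 82 lower in polysomal RNA, with a median of -1.10, beside 27.0% higher and 50.9% lower of all tested sites outside the list and 32.4 and 43.1% of all sites tested. In Trf, transferrin, 10 of 15 fell and 2 rose, and in C3, a complement protein, 10 of 11 fell. Cytochrome P450 genes had 28 of 118 higher and 62 lower, near the shares of all tested sites outside the list. All 5 tested sites in Cyp7b1, an oxysterol hydroxylase, fell, with a median of -6.24, whereas 4 of 6 in Cyp3a11 rose. Ribosomal protein genes had 4 of 38 higher and 23 lower. At the Apob site chr12:8002758-8002814 the level was 1.57, 5.85 and 11.9 CPM in total RNA and 0, 0 and 0.574 CPM in polysomal RNA, without overlap, and it fell by 7.14 ± 0.31 (edgeR adjusted p = 2.61e-27).

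The share of a gene outside the list fell in polysomal RNA for 1363 of 2709 genes and rose for 466 (67.5% changed, 17.2% higher and 50.3% lower), and the median share was 13.9% in total and 10.7% in polysomal RNA. In Atf1, a CREB family factor, it was 7.03, 20.1 and 36.03% in total RNA, 22.7, 69.2 and 89.3% in nuclear RNA and 0, 0 and 6.00% in polysomal RNA. The polysomal libraries lay below all others (log2 -5.59 ± 0.30, edgeR adjusted p = 2.21e-28). Gtf2a2 (-5.25), Slc25a42 (-4.92), Vgll4 (-4.68) and 0610040J01Rik (-4.59) fell as well. Mup15 had the largest rise, from 1.05, 5.45 and 16.2% to 13.4, 68.9 and 83.7% (log2 3.48 ± 0.23, edgeR adjusted p = 4.73e-21), with the uncertainty of its family, and Usp10 (3.47), a deubiquitinase, Ccdc107 (2.90), Cox20 (2.86) and Plbd1 (2.84) followed. Here too a gene could enter the test through its polysomal share alone, as Usp10 did with a total RNA median of 1.70%.

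Loss of Bmal1 changed fewer of the sites. Of 9134 tested, 1786 (19.6%) were higher and 1169 (12.8%) lower in Bmal1-/- total RNA, with a median log2 change of 0.04. Over all 29096 sites 32.7% changed, 16.9% higher and 15.8% lower, and the listed sites had a median of -0.02. Here as well a site can pass the filter through the counts of either set alone. By place the medians outside the list lay between -0.07 and 0.06.

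The 8 largest rises in Bmal1-/- RNA were almost all in no gene and came from some of the Bmal1-/- libraries only. At chr1:191685669-191685686 wild type had 5 counts in 36 libraries, and Bmal1-/- RNA had 0, 16.6 and 73.4 CPM, above 10 CPM in 21 libraries (log2 8.75 ± 0.75, edgeR adjusted p = 5.79e-14). At chr5:79638066-79638095 wild type had 9 counts, and Bmal1-/- RNA had 0, 0.487 and 121 CPM, at 0 in 14 libraries and above 10 CPM in 16 (log2 8.74, edgeR adjusted p = 2.15e-10). Both sites passed the filter through their Bmal1-/- counts alone, so their changes describe sites picked by high counts in that set. The rise at chrX:46455833-46455882 was 7.50 and that at chr10:8548793-8548866 was 7.41, and both could pass the filter in the same way. Sites chr4:33277838-33277880 (4.85), chr8:93097735-93097843 (3.82) and chr12:19119585-19119659 (3.47) rose less. In all of these the sets overlapped. The remaining 1, in Nudcd3 and the pseudogene Rps15a-ps6, split the wild-type libraries as well, since 26 had at most 2.21 CPM and 10 at least 19.9 CPM, while Bmal1-/- RNA had 20.5, 71.6 and 131 CPM (3.45 ± 0.41). What separates the libraries of a set at these sites was not tested.

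The largest falls included sites of the Mup and Serpina1 families, whose proteins are secreted by the liver, and sites in genes of other kinds. At chr4:61436717-61436771 in Mup15 wild type had 0.163, 27.6 and 127 CPM and Bmal1-/- RNA 0, 0.294 and 15.4 CPM, with overlap (log2 -5.97 ± 0.45, edgeR adjusted p = 4.07e-17). A neighbouring site in Mup15 (-5.06), sites in Mup2 (-4.10) and in Serpina1e (-2.44), an antitrypsin gene, also fell, and all of these belong to families of near-identical genes. Outside families, Cd1d1, which presents lipid antigens, had 11.4, 29.4 and 75.9 CPM in wild type and 1.99, 7.18 and 16.7 CPM in Bmal1-/- RNA (-2.23 ± 0.15, edgeR adjusted p = 1.79e-20). Upp2, uridine phosphorylase, had 0, 12.5 and 42.6 CPM against 0.491, 3.22 and 8.32 CPM (-2.06 ± 0.19), again with overlap.

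Sites in plasma protein genes were higher for 78 of 188 and lower for 16 in Bmal1-/- RNA, and those in cytochrome P450 genes were higher for 79 of 166 and lower for 5, with a median of 0.43. Beside them, 19.6% of all tested sites outside the list were higher and 12.8% lower, and of all sites tested 16.9 and 15.8%. All 17 tested sites in Cyp7b1 rose, as did 17 of 18 in Cyp2c29 (1.11) and 12 of 13 in Cyp2c70 (1.54). All 16 in C3 and 13 of 15 in Cp, ceruloplasmin, rose. In Alb, by contrast, 10 of 12 fell, with a median of -0.77. The share of a gene outside the list changed for 170 of 3076 genes (5.53%; 3.41% higher and 2.11% lower), and for 98 without the libraries numbered 4, with 46 then higher and 52 lower. In Nudcd3 it rose from 13.9, 31.1 and 67.4% to 55.6, 70.6 and 82.1% (log2 0.96 ± 0.09, edgeR adjusted p = 3.03e-13), and in Pcbp2, an RNA binding protein, from 5.69% ± 1.38 to 10.8% ± 2.82 (SD, n = 36; log2 0.91 ± 0.09). The other rises named by the rule were Hnrnpa3 (2.95), Mup7 (0.95) and Eif1 (0.85). Hnrnpa3 had a wild-type median of 0.855% and entered the test through its Bmal1-/- share. In Pde4d, a cAMP phosphodiesterase with 22 sites outside the list and 1 in it, the share fell from 63.2, 81.1 and 94.8% to 1.59, 9.32 and 86.4% (-1.76 ± 0.34, edgeR adjusted p = 0.00037), and some Bmal1-/- libraries stayed in the wild-type range. Mup2 (-4.15), Narf (-1.09), Gm33989 (-0.85) and Tmem30a (-0.72) fell too.

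Rhythms over the day were found at sites outside the list in the 3 wild-type sets. A 24 h cosine passed at an edgeR adjusted p under 0.05 for 1065 of 8573 tested sites in total RNA (12.4%; 11.5% of all sites tested), for 661 of 11483 in nuclear RNA (5.76%; 4.37% of all) and for 103 of 4107 in polysomal RNA (2.51%; 3.28% of all). In Bmal1-/- RNA it passed for 0 of 9768 (0% of all), with 261 at an unadjusted p under 0.05. The median ratio of peak to trough at the passing sites was 2.60 in total, 3.89 in nuclear and 3.56 in polysomal RNA. The peaks in total RNA lay at every time of day, from 107 sites nearest ZT6 to 239 nearest ZT14, and those in nuclear RNA ranged from 41 nearest ZT2 to 206 nearest ZT22. These counts rested in part on the libraries of some numbers. In total RNA 628 sites passed without the libraries numbered 2 and 678 without those numbered 5. In nuclear RNA 382, 360 and 432 passed without those numbered 2, 5 and 6, and in polysomal RNA 60, 68, 48 and 57 passed without those numbered 2, 4, 5 and 6. With time as a factor in place of the cosine 590 passed in total and 44 in polysomal RNA, and with no filter on counts 1631, 1128 and 3851 in total, nuclear and polysomal RNA.

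The clock genes show that sites outside the list can carry a clear rhythm in nuclear RNA. The clock is a loop in which Bmal1 with Clock or Npas2 drives Per and Cry genes, whose proteins then block that drive. Of 32 tested sites in 18 clock genes, 17 were rhythmic in nuclear RNA, against 6 of 14 in total and 1 of 6 in polysomal RNA. Of all sites tested, 4.37% passed in nuclear, 11.5% in total and 3.28% in polysomal RNA. These lists differ in which sites passed the filter. In Per3 5 of 5 sites peaked between ZT9.88 and ZT10.9, in Per2 3 of 3 between ZT13.8 and ZT14.1, in Arntl 4 of 4 between ZT20.1 and ZT22.1 and in Npas2 3 of 3 between ZT20.7 and ZT21.1. In Hlf only 1 of 6 tested sites passed in nuclear RNA, and in some other genes of the list none did.

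At chr1:91453768-91453822 in Per2, nuclear RNA had 2.44, 4.25 and 13.1 CPM at ZT2 and 41.2, 121 and 231 CPM at ZT14 (n = 6 each), without overlap. Total RNA at this site had 0, 0.305 and 0.456 CPM at ZT2 and 3.95, 5.87 and 7.77 CPM at ZT14. The ratio of peak to trough was 15.0 in nuclear and 12.2 in total RNA (edgeR adjusted p = 8.88e-06 and 5.38e-07), and the site was higher in nuclear RNA by 4.01 ± 0.21 on the log2 scale. In Bmal1-/- RNA the medians at the 6 times lay between 2.64 and 5.08 CPM, and the rhythm differed from wild type (edgeR adjusted p = 1.29e-06).

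A Tef site, chr15:81816807-81816832, in a clock-controlled factor, peaked in total RNA at ZT9.82 with a ratio of 7.94, and it was lower in nuclear RNA by 1.61 on the log2 scale. In Npas2 at chr1:39213414-39213434 nuclear RNA was at 0 in all 6 libraries at ZT10 and had 3.25, 11.8 and 33.2 CPM at ZT22. The Arntl site chr7:113275529-113275542, which passed the filter with Bmal1-/- RNA, was higher there by 1.35 ± 0.19 (edgeR adjusted p = 2.82e-08), and the difference in rhythm also passed (edgeR adjusted p = 0.000297): its wild-type medians fell to 0.146 CPM at ZT10 and reached 2.47 CPM at ZT2, while the Bmal1-/- medians stayed between 1.90 and 2.93 CPM.

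**Figure D4:**
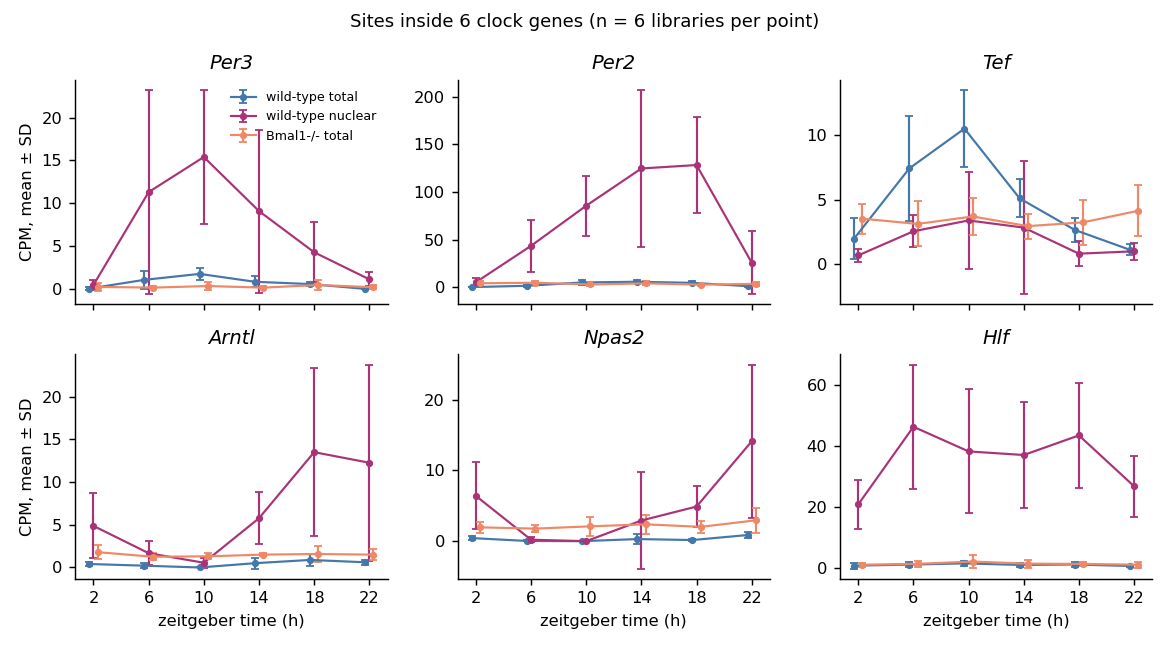
Mean ± SD of CPM (y axis, n = 6 libraries per point) by zeitgeber time (x axis, h) of 1 site in each of Per3, Per2, Tef, Arntl, Npas2 and Hlf, in total, nuclear and Bmal1-/- RNA. The nuclear series of the Per2 site climbs from a median of 4.25 CPM at ZT2 to 121 CPM at ZT14, while the Hlf site drawn was not among the sites called rhythmic.

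In total RNA the largest ratios were often antisense to a gene. The site chr11:6009216-6009446, antisense to Camk2b, a calmodulin-dependent kinase gene, had 31.1, 78.0 and 98.6 CPM at ZT2 and 284, 725 and 1079 CPM at ZT14 (n = 6 each), without overlap. Its ratio was 8.81 with a peak at ZT14.0 (edgeR adjusted p = 7.4e-08). In Bmal1-/- RNA the medians at the 6 times lay between 272 and 417 CPM, and the rhythm differed (edgeR adjusted p = 0.000477). The neighbouring site antisense to Camk2b, chr11:6008038-6008149, had a ratio of 9.88 and a peak at ZT13.7. The site at chr11:6009216-6009446 also passed in polysomal RNA, with a ratio of 6.92 and a peak at ZT14.6.

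Sites in and opposite Por, which passes electrons to the cytochromes P450, peaked at different times. Inside Por, chr5:135721626-135721647 had a ratio of 7.79 and a peak at ZT9.17 in total RNA, with medians of 16.8 CPM at ZT10 and 2.69 CPM at ZT22. Antisense to Por, chr5:135690850-135690889 had a ratio of 7.52 and a peak at ZT22.8 (edgeR adjusted p = 2.64e-07), with 0.451, 2.39 and 4.32 CPM at ZT10 and 8.96, 22.4 and 29.2 CPM at ZT22. The antisense site was thus low when the site inside the gene was high, and at the antisense site the libraries of those 2 times did not overlap. Another site inside Por, chr5:135728688-135728697, passed in polysomal RNA with a ratio of 5.88 and a peak at ZT13.7.

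The other sites named in total RNA were antisense to Amn1 (ratio 11.4, peak ZT14.1), in Onecut1, the hepatocyte factor HNF6 (8.96, ZT11.8), Ces3b (8.93, ZT10.6) and Ces1d (6.94, ZT12.9), both carboxylesterases, Acnat2, an acyl-CoA amino acid N-acyltransferase (6.81, ZT20.1), and at chr2:177051866-177051907 in no gene (7.64, ZT15.0). The calls in Onecut1 and Ces3b were lost when the libraries numbered 2 or 6 were left out (edgeR adjusted p = 0.155 and 0.106 in Onecut1, 0.121 and 0.0737 in Ces3b). The Onecut1 call was also lost without the libraries numbered 3 (0.0651), with time as a factor (0.145) and with no filter on counts (0.0616). In nuclear RNA the rule named Thrsp, a lipogenic protein gene (19.8, ZT13.1; edgeR adjusted p = 0.00852, and 0.0605 without the libraries numbered 1). It also named 2 sites in Xist that exceeded 1.55 CPM in 1 library only, at ZT22, a site in Cyp2b9 and the site chr7:26222116-26222127, in no gene, highest in that same library. Without the libraries high in Xist, the last had an edgeR adjusted p of 0.629 and the other 3 did not pass the filter on counts. In polysomal RNA the rule also named a site in Acnat2 (7.91, ZT21.2).

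Among the cytochrome P450 genes the sites of a gene peaked together. In Cyp7b1 9 of 10 tested sites in total RNA and 9 of 19 in nuclear RNA were rhythmic, with all peaks from ZT13.4 to ZT15.3. In Cyp2c29 8 of 11 and 8 of 13 peaked from ZT15.6 to ZT18.1, and in Cyp2c70 4 of 7 and 5 of 9 from ZT14.0 to ZT15.6. Cyp2e1 was earlier, with 6 of 12 sites in total RNA between ZT6.05 and ZT8.10 and 7 of 11 in nuclear RNA between ZT5.58 and ZT7.77. Both tested sites in Cyp7a1, the rate-limiting enzyme of bile acid synthesis, peaked at ZT14.1 and ZT15.6. Sites of a gene share its transcripts and are not independent.

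Tests of the difference in rhythm found most in Bmal1-/- RNA. Between nuclear and total RNA 0 of 10780 sites passed (0% of all 28429; edgeR, 196 at an unadjusted p under 0.05). Between polysomal and total RNA 16 of 6002 passed (0.267%, beside 0.0932% of all sites tested and 0.0375% of listed sites). In 15 of them the fitted ratio was larger in polysomal RNA. Without the libraries numbered 3 or 6 that count was 3. Between Bmal1-/- and wild type 187 of 9134 passed (2.05%; 2.11% of all), and in 183 the ratio was larger in wild type, with medians of 4.38 in wild type and 1.33 in Bmal1-/- RNA. Without the libraries numbered 2, 3, 5 or 6 that count was 100, 109, 80 or 100. For Bmal1-/- RNA the share that passed was near that of all sites.

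**Figure D5:**
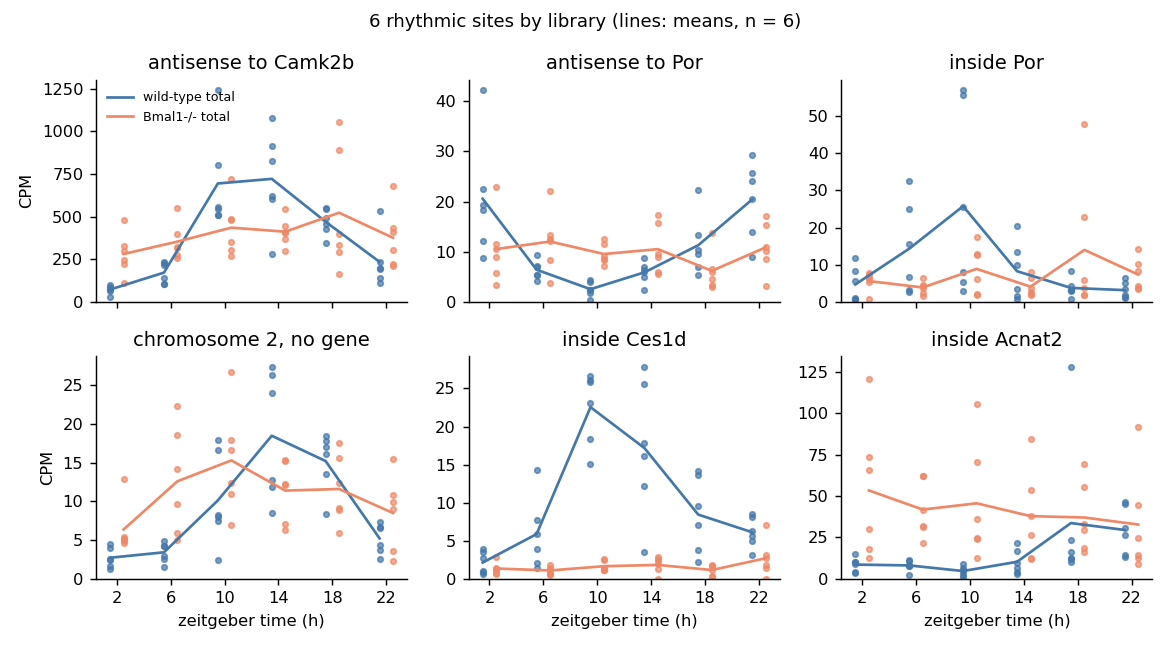
CPM (y axis) of 6 sites by zeitgeber time (x axis, h) in wild-type and Bmal1-/- total RNA. Points are libraries and lines join the means (n = 6). The site antisense to Por has a wild-type median of 2.39 CPM at ZT10 and 22.4 CPM at ZT22, the site inside Por is high at ZT10, and the Bmal1-/- lines are flatter.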

How the data were processed

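The raw site and gene tables hold counts that the authors deposited, 1 column per library for 144 libraries. Per the submitters' processing notes, STAR 2.4.2a, HOMER and edgeR were used with mm10 and GRCm38.p5; the role of each, the counter, its use of strand and the filter behind the shorter list are not given in the sources used here. Groups came from the labels. The members and gene lists were chosen with earlier results of these data known.

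CPM are counts per 1000000 site counts of a library, or gene counts for the gene table. Tests were edgeR 4.0.16 quasi-likelihood F tests (R 4.3.3, robust, TMM) on every site averaging 10 or more counts over the fitted libraries, with Benjamini-Hochberg adjustment over all of them at 0.05: contrasts of 12 groups of set and time, a 24 h cosine and sine (2 df), and their interaction with the set. A gene's share outside the list was tested with the log of its site total + 0.5 as offset. Tested genes had a mean of at least 50 site counts, with 5 to 95% of them outside the list over both sets together. Shares per library were tested by 2-sided permutation (100000 resamples, sets exchanged within times). The nuclear level contrast and the rhythm test in wild-type total RNA were checked on simulated counts without differences between library numbers. The other tests were not simulated.

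Sites were placed with the RefSeq gene table of GRCm38.p6, with strands from its promoter table. Sites were named by these rules: the 10 highest in wild-type total RNA, the 8 largest rises and falls per comparison averaging 50 counts or more and with 1 direction at 6 times, the 10 largest rhythms in total RNA and 5 in each other set, and the 5 largest rises and falls of a gene's share with a gene mean of at least 100. Sites in clock genes and in the fraction checks were added by list. 1 gene of the clock list is counted in its totals and not reported by name here.

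Alternatives were other size factors, no filter on counts, DESeq2 1.42.0, a replicate block, time as a factor, 5000 bp past the gene end and a gene mean of 200. Others were another denominator, leaving out the 10 sites highest over all libraries, and leaving out the libraries of each number. Leaving out the libraries high in Xist was chosen after seeing the data. Depth ranged from 1404964 to 12217394 site counts, so weak sites were tested with little precision.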

Additional observations from a re-analysis of the deposited data

Results flagged for a closer look

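In polysomal RNA at ZT14 the highest share of counts outside the filtered list, 14.4%, stood apart from the other 5 libraries of its group. Of 24 groups of libraries examined in this way chance would be likely to set apart about 1 in 20.

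The daily rhythm differed between polysomal and total RNA at 16 sites and between Bmal1-/- and wild-type total RNA at 187 sites, by edgeR's test of the difference itself. Among the sites named in total RNA, the difference between Bmal1-/- and wild type had an edgeR adjusted p of 0.0145 and 0.000477 at the sites antisense to Camk2b (chr11:6008038-6008149 and chr11:6009216-6009446), 0.0103 inside Por, 9.6e-05 antisense to Por, 0.00092 at chr2:177051866-177051907, 0.00647 in Ces1d and 0.00984 in Acnat2. In Ces1d the Bmal1-/- libraries also stayed low, at 7.02 CPM or less, while 14 wild-type libraries exceeded 10 CPM. In Acnat2, whose site overlaps the pseudogene Rbpj-ps1, Bmal1-/- libraries exceeded 10 CPM in 35 of 36.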

How the results depend on the processing

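Of 206 alternatives to the shares and counts, 169 kept their direction and stayed within 1.5 times or on the same side of the threshold. Of 1066 for named sites and genes, 1042 did so, 23 lost the call and 1 reversed: the fall of the share in Akr1e1 became a rise of 0.64 with 5000 bp past the gene end. Leaving out the libraries high in Xist moved none of the shares and counts across these limits, nor did other size factors for the site counts of level and rhythm or DESeq2 for those of level, where alone they were run. The causes below were not tested where no construction shows them.

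The polysomal difference in share, -0.146 points, reversed to 0.461 with the gene table total as denominator. It ranged from -0.446 to 0.214 with the libraries of 1 number left out. It passed at -1.33 without the 10 sites highest over all libraries. With no filter on counts, sites changed in level numbered 39081 in nuclear (19834 higher, 50.8%, against 75.2% with the filter), 39408 in polysomal (6256 higher, 15.9%, against 34.7%) and 8395 in Bmal1-/- RNA. Rhythms then numbered 1631, 1128, 3851 and 4 in total, nuclear, polysomal and Bmal1-/- RNA, and differences in rhythm 4 in nuclear and 2317 in polysomal RNA. Time as a factor gave 590 rhythms in total and 44 in polysomal RNA. A gene mean of 200, which tests fewer genes, gave 1195 gene shares changed in nuclear and 802 in polysomal RNA.

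With the libraries of 1 number left out, rhythms ranged from 628 to 1109 in total, 360 to 629 in nuclear, 48 to 102 in polysomal and 0 to 1 in Bmal1-/- RNA, differences in rhythm from 3 to 24 in polysomal and 80 to 190 in Bmal1-/- RNA, and gene shares changed in Bmal1-/- RNA from 98 to 193.

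Libraries of the same number deviated together unevenly (mean correlation 0.317 in nuclear, -0.083 in polysomal and 0.116 in Bmal1-/- RNA, with 34, 2 and 21 of 36 pairs over 0.1; in nuclear RNA the lowest pair was at -0.278 and 27 of 36 libraries correlated best with their own number). Since not every pair passed 0.1 in any set, the numbers were not taken to pair them. With the replicate block, polysomal rhythms numbered 211, Bmal1-/- rhythms 1 and gene shares changed in Bmal1-/- RNA 312; the block moved no other count or share by as much.

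Depth limits the weak sites: 40386 of 57581 entered no test, and nothing is shown about them beyond their place and summed counts.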

Other observations

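Sites outside the list were also counted in the genes that mark liver cell types. The 7 hepatocyte markers held 114 of them, the 6 markers of sinusoidal endothelium 45, the 5 of stellate cells 15, the 6 of Kupffer cells 10, the 5 of cholangiocytes 4, the 5 of pancreatic acinar cells 2 and the 5 of lymphocytes 1, and no adipocyte or erythroid marker held any. Of the hepatocyte sites tested, 30 of 59 were higher and 19 lower in nuclear RNA, and 4 of 49 were higher and 30 lower in polysomal RNA. Of all tested sites outside the list, 67.8% were higher and 22.4% lower in nuclear RNA, and 27.0% higher and 50.9% lower in polysomal RNA. These are given side by side, with no test of the difference. In sinusoidal endothelium 4 of 4 tested sites were lower in polysomal RNA. Few sites of the other types entered a test.

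Rhythmic sites were counted by gene group too. By edgeR in total RNA, cytochrome P450 genes had 41 of 135, hepatocyte markers 12 of 57 and plasma protein genes 13 of 172. In nuclear RNA the numbers were 33 of 145, 14 of 54 and 11 of 168. These are descriptions beside the 11.5% of all sites tested in total RNA and 4.37% in nuclear RNA.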
